A study of Homo sapiens with 12 samples.

Results

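The expression of 10 genes that encode immune checkpoint ligands or related surface and secreted proteins other than PD-L1 was examined in U251 cells, an established human glioblastoma cell line. The genes were *LGALS9*, *LGALS1*, *LGALS3*, *CD276*, *TNFRSF14*, *CD47*, *PVR*, *NECTIN2*, *NT5E* and *CEACAM1*, chosen by name from the 45416 genes of the expression table, and all 10 passed the filter on low values. Sequencing gave 12 libraries in 6 groups of 2, and all cells had been transfected with an siRNA for 48 h. The siRNA was the negative control (siNC) or 1 of 2 siRNAs against the PD-L1 mRNA (siPDL1-1 and siPDL1-2). For each siRNA, cells were left unstimulated or received IFNγ at 100 U/ml for 24 h. The replicates came from 2 independent experiments in 1 cell line with transient knockdown, and p-values reflect only the spread between these libraries. Levels are the normalized CPM that the authors deposited, read counts scaled to library size and by a further normalization factor for each library. Groups of 2 libraries are given library by library.

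Immune checkpoint ligands on tumor cells bind receptors on T cells, NK cells and macrophages and restrain them. PVR and NECTIN2 bind TIGIT, TNFRSF14 binds BTLA, galectin-9 (the product of *LGALS9*) and CEACAM1 bind TIM-3, CD47 binds SIRPα on macrophages, and CD73 (the product of *NT5E*) is the ectoenzyme that forms adenosine from AMP. IFNγ, released by activated T and NK cells, acts on promoters that carry GAS or ISRE elements, and PD-L1 itself is a well-known target.

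The regions around the start sites of the 3 members with the largest IFNγ fold changes are shown because they differ in the interferon motif letters that they hold. They are RefSeq sequences (GRCh38.p14), from 250 bases before the start site to 50 bases after it. They cover chr19:42528432-42528731 on the minus strand for *CEACAM1*, chr17:27630938-27631237 on the plus strand for *LGALS9* and chr1:2556121-2556420 on the plus strand for *TNFRSF14*. Capitals mark the ISRE core, searched as GAAA and GAAA with 2 bases of any kind between them, on either strand.
CEACAM1: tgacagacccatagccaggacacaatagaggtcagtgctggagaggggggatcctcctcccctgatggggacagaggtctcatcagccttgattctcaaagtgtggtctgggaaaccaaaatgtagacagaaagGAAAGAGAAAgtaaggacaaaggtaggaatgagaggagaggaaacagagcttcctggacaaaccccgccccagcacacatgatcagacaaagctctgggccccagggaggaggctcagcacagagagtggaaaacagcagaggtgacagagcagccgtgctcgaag
LGALS9: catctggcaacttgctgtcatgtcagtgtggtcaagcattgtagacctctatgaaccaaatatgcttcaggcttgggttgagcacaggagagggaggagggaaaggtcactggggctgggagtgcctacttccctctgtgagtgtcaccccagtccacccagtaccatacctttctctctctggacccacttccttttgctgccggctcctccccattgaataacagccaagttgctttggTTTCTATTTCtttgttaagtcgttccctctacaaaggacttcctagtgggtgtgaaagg
TNFRSF14: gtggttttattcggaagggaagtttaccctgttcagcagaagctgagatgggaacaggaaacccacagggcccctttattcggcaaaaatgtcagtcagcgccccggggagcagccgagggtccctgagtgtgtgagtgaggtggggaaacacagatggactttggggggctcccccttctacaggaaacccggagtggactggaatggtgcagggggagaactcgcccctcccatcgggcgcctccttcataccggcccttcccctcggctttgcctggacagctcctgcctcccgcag
The *CEACAM1* region held the core from 116 to 107 bases before the start site, and the *LGALS9* region held it on the opposite strand, from 9 bases before the start site to the first transcribed base. The *TNFRSF14* region held neither the ISRE core nor the GAS motif TTCNNNGAA. The RefSeq table had an entry for 9 of the 10 members, with 10 start regions in all because *CD276* has 2. GAS was found in 0 of these 10 regions and the ISRE core in 2. Over all 35116 start regions of the same length, 7.66% held GAS and 3.57% held the ISRE core. The motifs were searched on both strands, they do not share letters in these regions, and a match describes the sequence only. The 3 printed regions lie inside the gene spans given below and not at their 5' ends. Any other start sites of these 3 genes were not searched.

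Libraries held between 17101069 and 55657393 reads on genes, and 1 read was worth between 0.0187 and 0.0586 CPM. The lowest member value rested on 11 reads (*CEACAM1*, siNC, replicate 1) and the highest on 24387 reads. Glial and glioma markers were expressed (11 of 12 with a mean of at least 1 CPM, summed level 5067 to 5980 CPM; *OLIG2* was below that). Of 16 leukocyte and endothelial markers only *VWF* reached a mean of 1 CPM, *CD2* and *MS4A1* were at 0 in every library, and their summed level was 4.70 to 6.91 CPM without and 2.93 to 3.94 CPM with IFNγ. *VWF* and the astrocyte marker *GFAP* were called lower after IFNγ with every siRNA (in siNC cells 4.25 to 1.67 and 4.34 to 2.49 mean CPM). *SOX2* was called higher with siNC and siPDL1-1 (0.66 and 0.60 on the log2 scale). *PTPRZ1* was called lower with siPDL1-2 (-0.86) and not with siNC or siPDL1-1 (-0.32 and -0.55). Against siNC without stimulation, *GFAP* was called higher with siPDL1-1, and *S100B*, *SOX2* and *PTPRZ1* with siPDL1-2. After IFNγ, *GFAP* was called higher with siPDL1-1 than with siPDL1-2, and its IFNγ response was called lower with siPDL1-2 than with siNC. The part of these markers in the results was not tested. In bulk RNA, fewer expressing cells and less RNA per cell cannot be told apart.

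The targeted gene *CD274* (PD-L1) was measured at 4.60 and 4.91 CPM in siNC cells, 2.67 and 2.73 in siPDL1-1 cells and 3.57 and 3.45 in siPDL1-2 cells. After IFNγ it was at 71.2 and 76.0 CPM in siNC cells, 60.9 and 66.7 in siPDL1-1 cells and 37.5 and 35.0 in siPDL1-2 cells. Both siRNA groups were below siNC in every library, with and without IFNγ. Without IFNγ, the limma test called *CD274* lower with siPDL1-1 (log2 fold change -0.64 ± 0.076 (SE), FDR = 1.76e-05), and with siPDL1-2 the difference was -0.35 (FDR = 0.00183), under the fold change threshold. After IFNγ it was called lower with siPDL1-2 (0.493 times the siNC level, FDR = 4.25e-07) but not with siPDL1-1 (-0.20, FDR = 0.0498). Changes of the members after siPDL1-1 and IFNγ are therefore given beside a *CD274* mRNA level of 0.867 times that of siNC. A gene was called when its limma FDR, over the 17982 genes tested, was under 0.01 and its fold change over 1.5 on the scale of log2(CPM + 1).

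The members covered a wide range of levels. Per kilobase of the canonical transcript, unstimulated siNC cells held 793 CPM of *LGALS1*, 74.3 of *LGALS3*, 48.6 of *NECTIN2*, 33.9 of *PVR* and 27.3 of *CD276*. *CD47* followed at 6.84, *NT5E* at 6.17, *LGALS9* at 3.90, *TNFRSF14* at 2.46 and *CEACAM1* at 0.142 CPM per kilobase. No neighbours in this order had libraries that overlapped. The coefficient of variation between the 2 libraries of a group had a median of 3.00% over the 60 values of members and groups, was under 10% in 55 of them and was highest for *CEACAM1* in unstimulated siPDL1-1 cells (23.1%). The plot of normalized CPM by library shows all 10 members.

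**Figure D1:**
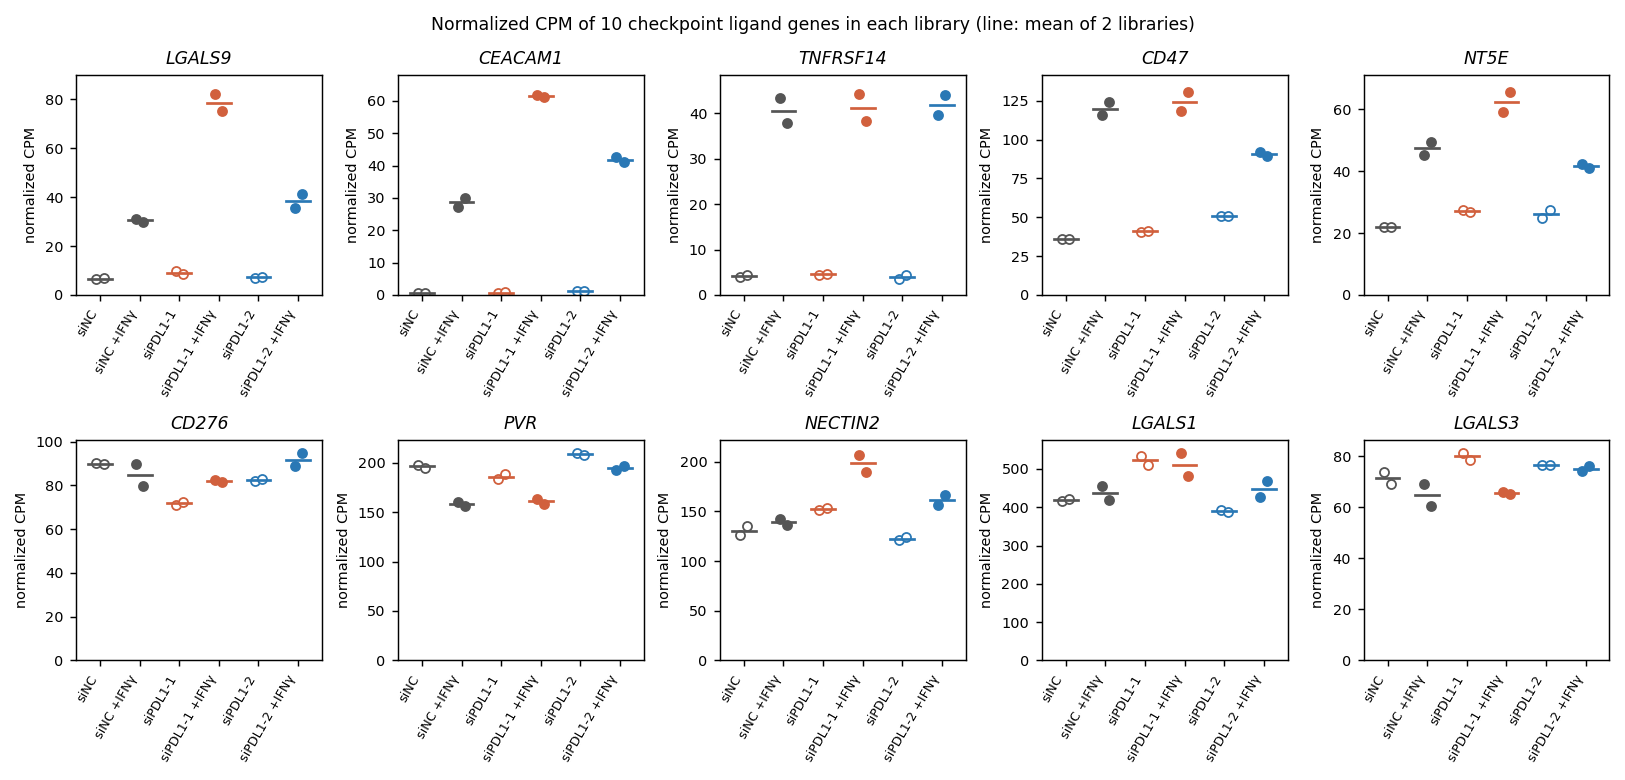
Normalized CPM (y axis, linear, from 0) of each member in the 12 libraries, by group (x axis). Open points are unstimulated and filled points IFNγ-stimulated libraries, lines are means of 2 libraries. *CEACAM1*, *TNFRSF14*, *LGALS9*, *CD47* and *NT5E* separate by IFNγ with every siRNA. *CD276*, *PVR*, *LGALS1*, *LGALS3* and *NECTIN2* were not called, and *NECTIN2* ran from 122 to 207 CPM.

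IFNγ raised 5 of the 10 members with every siRNA: *CEACAM1*, *TNFRSF14*, *LGALS9*, *CD47* and *NT5E*. The other 5 were called in none of the 3 comparisons, and 0 members were called lower. Of all genes tested, 6.67% were called higher in siNC cells, 5.58% in siPDL1-1 cells and 3.62% in siPDL1-2 cells, and 1.45%, 1.30% and 1.65% were called lower. The median log2 fold change of the members was 0.59, 0.77 and 0.52 in these cells, against 0.0012, -0.016 and -0.015 over all genes tested. The members were chosen with earlier results of these data known, so these shares and medians are descriptions. The 5 members that rose were the 5 with the lowest unstimulated level per kilobase in siNC cells. edgeR and DESeq2 also called 5 members in each comparison.

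*CEACAM1* encodes an adhesion molecule that binds itself and TIM-3 and carries inhibitory motifs (ENSG00000079385, chr19:42507304-42561234, minus strand). It was measured at 0.539 and 0.455 CPM in unstimulated siNC cells and at 27.2 and 29.9 CPM after IFNγ. In siPDL1-1 cells it was at 0.609 and 0.847 CPM without and 61.9 and 61.2 CPM with IFNγ. In siPDL1-2 cells it was at 1.22 and 1.19 CPM without and 42.7 and 41.0 CPM with IFNγ. Stimulated and unstimulated libraries did not overlap, and the mean CPM was 57.5, 84.5 and 34.7 times higher after IFNγ with siNC, siPDL1-1 and siPDL1-2. The log2 fold changes were 4.30, 5.18 and 4.28 (SE 0.094 each), and the limma FDR in siNC cells was 1.22e-14. *CEACAM1* ranked 25, 23 and 23 from the highest among the 17982 genes. Because the unstimulated level was near the pseudocount of 1, edgeR on the recovered reads gave larger values of 5.85, 6.39 and 5.12. The opposite-strand gene *LIPE-AS1* overlaps *CEACAM1* and had a mean of 2.81 CPM, above the unstimulated *CEACAM1* level, and reads were counted without regard to strand.

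*TNFRSF14* encodes HVEM, the ligand of BTLA and CD160 and the receptor of LIGHT (ENSG00000157873, chr1:2555639-2565382, plus strand). Its 6 unstimulated libraries lay between 3.43 and 4.59 CPM. After IFNγ the libraries were at 43.4 and 37.7 CPM with siNC, 44.1 and 38.2 with siPDL1-1 and 39.5 and 43.9 with siPDL1-2. The stimulated levels of the 3 siRNA groups overlapped each other and lay far above the unstimulated ones. The mean was 9.69, 9.06 and 10.7 times higher after IFNγ, with log2 fold changes of 3.00, 2.92 and 3.13 (SE 0.107; limma FDR = 6.59e-12 in siNC cells).

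*LGALS9* encodes galectin-9, a sugar-binding protein that can induce death of TIM-3-positive T cells (ENSG00000168961, chr17:27629798-27649560, plus strand). It was measured at 6.61 and 6.83 CPM in unstimulated siNC cells and at 31.2 and 29.8 CPM after IFNγ. In siPDL1-1 cells it was at 9.63 and 8.57 CPM without and 82.1 and 75.2 CPM with IFNγ. In siPDL1-2 cells it was at 7.07 and 7.48 CPM without and 35.7 and 41.3 CPM with IFNγ. The siPDL1-1 libraries with IFNγ were the highest of the 12 and were separated from all others. The mean was 4.54, 8.65 and 5.29 times higher after IFNγ, with log2 fold changes of 2.03, 2.98 and 2.25 (SE 0.083; limma FDR = 3.58e-11 in siNC cells). The near-identical copies *LGALS9B* and *LGALS9C* had group means of at most 0.948 and 0.537 CPM; how reads shared between copies were assigned is not given in the sources used here.

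*CD47* encodes the signal that keeps macrophages from engulfing a cell (ENSG00000196776, chr3:108043091-108091862, minus strand). Unstimulated levels were 36.3 and 36.1 CPM with siNC, 40.6 and 41.1 with siPDL1-1 and 51.1 and 51.1 with siPDL1-2. After IFNγ they were 116 and 124 CPM with siNC, 118 and 130 with siPDL1-1 and 92.3 and 89.5 with siPDL1-2. The siPDL1-2 cells thus had the highest level of the 3 siRNAs before and the lowest after stimulation. The mean was 3.31, 3.05 and 1.78 times higher after IFNγ, with log2 fold changes of 1.70, 1.58 and 0.82 (SE 0.054; limma FDR = 1.40e-12 in siNC cells).

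*NT5E* encodes CD73 (ENSG00000135318, chr6:85449584-85495791, plus strand). Unstimulated levels were 21.9 and 22.1 CPM with siNC, 27.4 and 26.9 with siPDL1-1 and 25.0 and 27.3 with siPDL1-2. After IFNγ they were 45.4 and 49.6 CPM with siNC, 59.1 and 65.7 with siPDL1-1 and 42.4 and 41.0 with siPDL1-2. The lowest stimulated library was above the highest unstimulated one. *NT5E* was the least induced of the 5 members, with means 2.16, 2.30 and 1.59 times higher and log2 fold changes of 1.08, 1.17 and 0.65 (SE 0.067; limma FDR = 7.40e-09 in siNC cells).

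**Figure D2:**
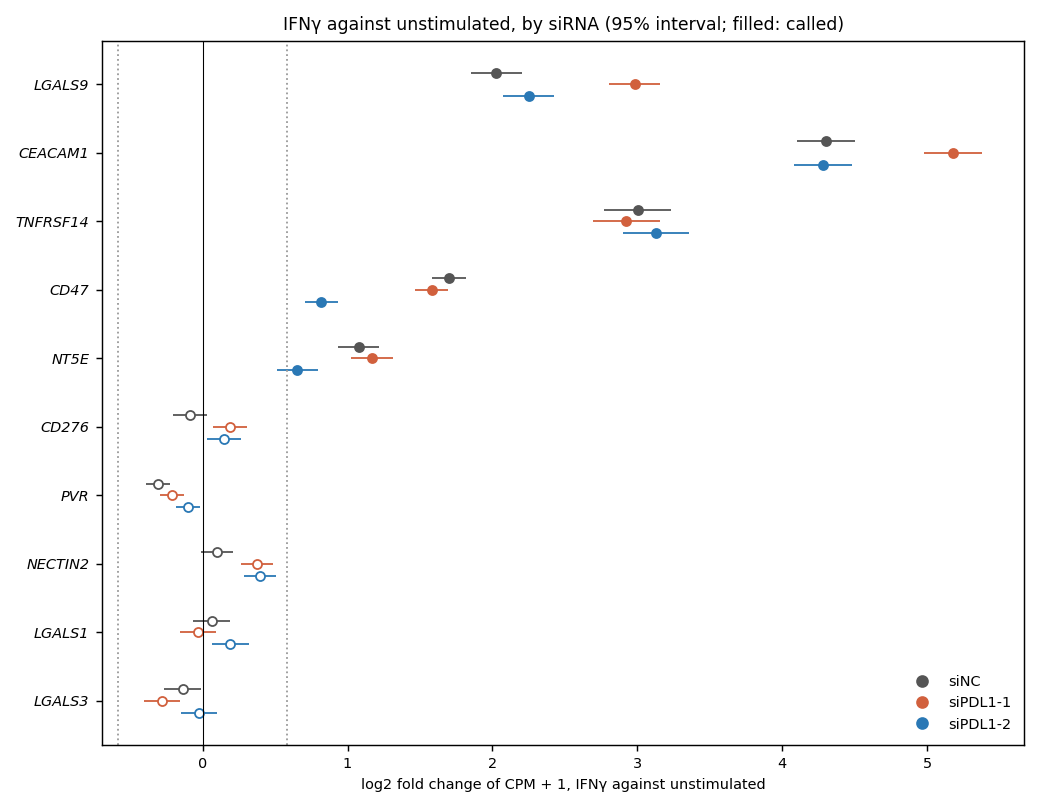
Log2 fold change of CPM + 1 (x axis) for IFNγ against unstimulated cells of the same siRNA, with 95% intervals, for each member. Filled points were called and dotted lines mark a fold change of 1.5. The 5 upper genes lie above the threshold with every siRNA and the 5 lower genes lie within it.

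Among the members that were not called are the TIGIT ligands. *PVR* encodes CD155, the ligand of TIGIT, CD226 and CD96 (ENSG00000073008, chr19:44643798-44666162, plus strand). It was measured at 198 and 195 CPM in siNC cells without and 161 and 156 CPM with IFNγ, and these libraries did not overlap. The difference had a limma FDR of 1.56e-05 but was -0.31 on the log2 scale (95% interval -0.39 to -0.22), short of the fold change threshold. With siPDL1-1 it was -0.21 (FDR = 6.36e-04), from 184 and 188 to 164 and 158 CPM, and with siPDL1-2 -0.10 (FDR = 0.0647), from 210 and 208 to 193 and 197 CPM. The *PVR* libraries with IFNγ lay below those without it in all 3 siRNA groups. It overlaps *CEACAM19* on the same strand, whose mean was 9.42 CPM against 184 CPM for *PVR*.

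*NECTIN2* encodes CD112, the ligand of PVRIG, TIGIT and CD226 (ENSG00000130202, chr19:44846175-44889223, plus strand). Its levels were 126 and 135 CPM in siNC cells without and 143 and 137 CPM with IFNγ. With siPDL1-1 they were 151 and 154 CPM without and 207 and 190 CPM with IFNγ, and with siPDL1-2 122 and 124 CPM without and 156 and 167 CPM with IFNγ. The log2 fold change was 0.10 with siNC (limma FDR = 0.161), 0.38 with siPDL1-1 (FDR = 4.26e-05) and 0.39 with siPDL1-2 (FDR = 4.21e-05). All 3 values were under the fold change threshold.

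*CD276* (B7-H3, a B7 family protein whose receptor is not settled; ENSG00000103855, chr15:73683966-73714514, plus strand) lay between 71.2 and 94.8 CPM in the 12 libraries. Its IFNγ log2 fold changes were -0.09, 0.19 and 0.15 with siNC, siPDL1-1 and siPDL1-2, with limma FDR of 0.242, 0.0139 and 0.0555. *LGALS1* encodes galectin-1, which acts on T-cell survival (ENSG00000100097, chr22:37675636-37679802, plus strand), and was the most abundant member per kilobase, at 389 to 541 CPM. Its IFNγ log2 fold changes were 0.06, -0.03 and 0.19, and the 95% intervals reached from -0.16 at the lowest to 0.32 at the highest. *LGALS3* encodes galectin-3, a ligand of LAG-3 (ENSG00000131981, chr14:55124110-55145423, plus strand), and lay between 60.5 and 81.2 CPM. Its IFNγ log2 fold change was -0.14 with siNC (FDR = 0.0759), -0.28 with siPDL1-1 (FDR = 0.00176) and -0.03 with siPDL1-2 (FDR = 0.785). A galectin thus rose with IFNγ (*LGALS9*) while the more abundant *LGALS1* and *LGALS3* were not called. The decrease of *LGALS3* in siPDL1-1 cells passed the FDR threshold and missed only the fold change threshold.

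After IFNγ the members were closer to each other per kilobase. In siNC cells *TNFRSF14* stood at 23.8, *CD47* at 22.7, *LGALS9* at 17.7, *NT5E* at 13.3 and *CEACAM1* at 8.19 CPM per kilobase, next to *CD276* at 25.7 and *PVR* at 27.4. From *PVR* through *CD276* and *TNFRSF14* to *CD47*, neighbours in this order had libraries that overlapped. *LGALS1* (829), *LGALS3* (67.5) and *NECTIN2* (51.9) kept the highest places.

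The effect of the *PD-L1* siRNAs on the members was tested first without stimulation. Both siRNAs were compared with the same siNC libraries, so their values are not independent. With limma, 0 of 10 members were called for siPDL1-1, for siPDL1-2 or between the siRNAs, where 4.00%, 6.17% and 4.35% of all genes tested were called. At an unadjusted p under 0.05, limma gave 8, 5 and 7 members, where 38.9%, 48.2% and 44.7% of all genes tested had such a p. edgeR and DESeq2 each called 0, 1 and 0 members.

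The member that the count models called was *CEACAM1* with siPDL1-2, at 1.22 and 1.19 CPM against 0.539 and 0.455 CPM in siNC cells, a ratio of means of 2.43. The libraries did not overlap. The log2 fold change was 0.56 with limma (SE 0.094, FDR = 2.42e-04), just under the threshold, and 1.29 with edgeR (FDR = 5.71e-04). The unstimulated counts were between 11 and 51 reads per library. *CD47* was 1.41 times higher with siPDL1-2 (log2 0.48, limma FDR = 6.69e-06) and 1.13 times higher with siPDL1-1 (0.17, FDR = 0.0273). With siPDL1-1, *LGALS9* was 1.35 times higher (0.39, FDR = 0.00259) and *LGALS1* 1.25 times higher (0.32, FDR = 9.66e-04). *CD276* was 0.798 times the siNC level with siPDL1-1 (-0.32, FDR = 4.14e-04). The differences of *CD47*, *LGALS9*, *LGALS1* and *CD276* were larger than the spread between libraries but smaller than 1.5-fold.

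After IFNγ, siPDL1-1 cells held more *LGALS9* and *CEACAM1* than siNC cells, and these were the 2 members called, both higher. Of all genes tested, 3.73% were called higher in this comparison. *LGALS9* was 2.58 times the siNC level (log2 1.34, SE 0.083, limma FDR = 1.35e-08) and *CEACAM1* 2.15 times (1.08, SE 0.094, FDR = 4.86e-07). In each case both siPDL1-1 libraries lay above both siNC libraries, at 82.1 and 75.2 against 31.2 and 29.8 CPM for *LGALS9* and at 61.9 and 61.2 against 27.2 and 29.9 CPM for *CEACAM1*. *NECTIN2* was 1.42 times the siNC level (0.50, FDR = 2.70e-06) and *NT5E* 1.31 times (0.39, FDR = 3.85e-04), under the fold change threshold. *CD47* differed by 0.05 on the log2 scale (95% interval -0.06 to 0.17) and *TNFRSF14* by 0.02 (95% interval -0.21 to 0.25).

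With siPDL1-2 after IFNγ, limma called 0 members against siNC, edgeR and DESeq2 0, where 3.13% of all genes tested were called by limma. An unadjusted limma p under 0.05 was found for 7 members and for 40.8% of all genes tested. *CEACAM1* was 1.46 times the siNC level (log2 0.54, SE 0.094, limma FDR = 6.10e-04), and without siNC replicate 2 of the stimulated group it was called (0.60). *CD47* was 0.758 times the siNC level (-0.40, SE 0.054, FDR = 8.07e-05), with both siPDL1-2 libraries below both siNC libraries. *PVR* was 1.23 times (0.30, FDR = 5.27e-05) and *LGALS9* 1.26 times the siNC level (0.32, FDR = 0.00875).

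The siRNAs differed from each other in the stimulated cells for *LGALS9*, which was 2.05 times higher with siPDL1-1 than with siPDL1-2 (log2 1.02, limma FDR = 5.89e-07). It was the only member that limma called, where 1.79% of all genes tested were called in this direction. *NT5E* was higher with siPDL1-1 by 0.57 on the log2 scale ( FDR = 2.70e-05), at the edge of the threshold, and was called by DESeq2 and when replicate 1 of either stimulated siRNA group was left out (0.64 and 0.59). *CD47* was 1.37 times higher with siPDL1-1 (0.45, FDR = 3.19e-05). *TNFRSF14* had log2 differences of at most 0.04 in size between the 3 siRNAs after IFNγ, with FDR of 0.818 to 0.922 and 95% intervals that reached from -0.25 to 0.27. The order of the stimulated levels was siPDL1-1, siPDL1-2, siNC for *LGALS9* and *CEACAM1*, and siPDL1-1, siNC, siPDL1-2 for *CD47* and *NT5E*. The siNC and siPDL1-1 libraries overlapped for *CD47*, and the groups did not overlap otherwise for these 4 genes. Beside these values, the IFNγ-response gene *IRF1* was called lower with siPDL1-1 than with siNC (-0.63) and differed by -0.50 with siPDL1-2, under the fold change threshold. Its part in the differences between siRNAs was not tested.

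**Figure D3:**
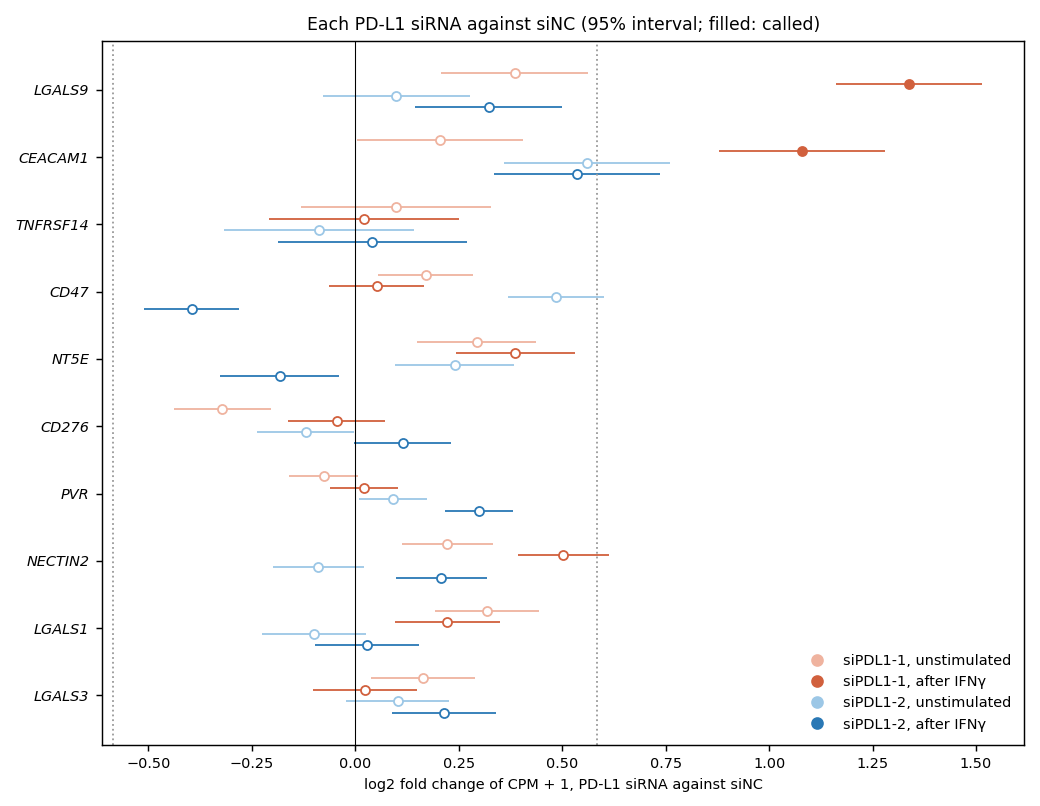
Log2 fold change of CPM + 1 (x axis) for each *PD-L1* siRNA against siNC, unstimulated (light) and after IFNγ (dark), with 95% intervals. Filled points were called and dotted lines mark a fold change of 1.5. *LGALS9* and *CEACAM1* with siPDL1-1 after IFNγ lie beyond the threshold, and *CD47* with siPDL1-2 is above 0 without and below 0 with IFNγ.

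Whether the response to IFNγ itself differed between siRNAs was tested with the interaction term. With siPDL1-1 against siNC, *LGALS9* (0.95, SE 0.117, limma FDR = 1.28e-04) and *CEACAM1* (0.88, SE 0.133, FDR = 0.00105) had larger responses, where 0.890% of all genes tested were called in this direction. The *LGALS9* value was 0.98 with edgeR and was called there too (FDR = 1.27e-04). The *CEACAM1* value was 0.54 with edgeR (FDR = 0.483) and 0.53 with DESeq2 (FDR = 0.585), and the call was lost. With siPDL1-2 against siNC, *CD47* had a smaller response (-0.88, SE 0.076, limma FDR = 1.86e-05), where 5.78% of all genes tested were called in this direction. The response of *NT5E* was also smaller there (-0.42, FDR = 0.00410) and that of *NECTIN2* larger (0.30, FDR = 0.00710), both under the fold change threshold. *CEACAM1* was at -0.02 with limma (FDR = 0.916) and at -0.73 with edgeR (FDR = 0.0445), and was not called with either.

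Between siPDL1-1 and siPDL1-2, the responses of *CEACAM1* (0.90, limma FDR = 3.32e-04), *CD47* (0.76, FDR = 1.04e-05) and *LGALS9* (0.73, FDR = 6.04e-04) were larger with siPDL1-1, and 4.32% of all genes tested were called in this direction. edgeR and DESeq2 called the same 3 members. The response of *NT5E* differed by 0.52 (FDR = 0.00159), under the threshold, and that of *TNFRSF14* by -0.21 (FDR = 0.359; 95% interval -0.53 to 0.12). The response of *CD274* itself differed between the siRNAs by 1.08 (FDR = 9.83e-06), in the same direction.

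**Figure D4:**
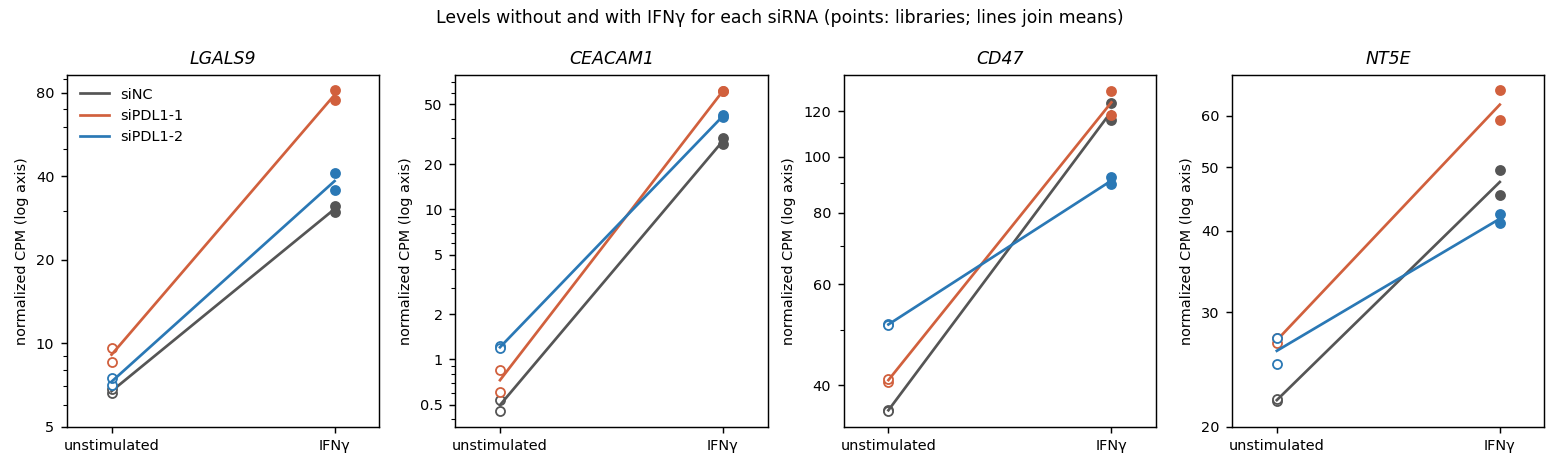
Normalized CPM (y axis, log scale) of *LGALS9*, *CEACAM1*, *CD47* and *NT5E* without and with IFNγ, by siRNA. Points are libraries and lines join group means. The *CD47* line of siPDL1-2 starts highest, at 51.1 CPM, and ends lowest, and the siPDL1-1 line of *LGALS9* ends near 78.7 CPM, above the other groups.

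**Figure D5:**
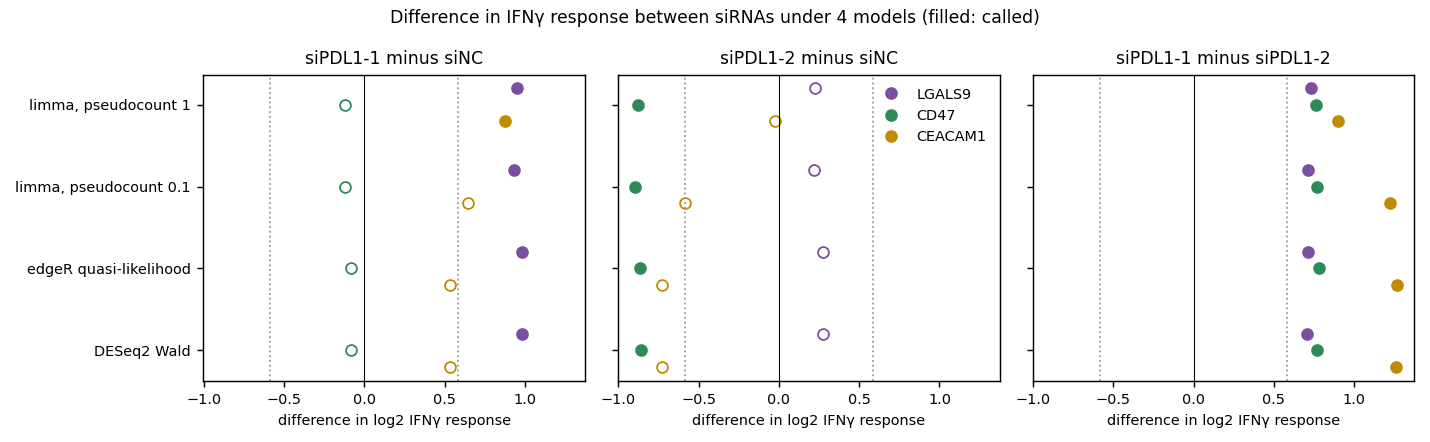
Difference between siRNAs in the log2 response to IFNγ (x axis) for *LGALS9*, *CD47* and *CEACAM1* under 4 models (y axis). Filled points were called and dotted lines mark a fold change of 1.5. The *LGALS9* and *CD47* values stay in place across models, whereas the *CEACAM1* value against siNC moves from 0.88 to 0.53 for siPDL1-1.

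The receptors and binding partners of the members ranged from near 0 to high levels in these cells. Means over the 12 libraries were 1124 CPM for *P4HB*, 523 for *CD44* and 29.9 for *SIRPA*, which encodes SIRPα. *SIRPA* differed by -0.55 on the log2 scale with IFNγ in siNC cells (limma FDR = 1.47e-04), under the fold change threshold. Of 19 listed genes 13 were tested. With IFNγ in siNC cells 0 were called higher and 1 lower, *THBS1* (a ligand of CD47, 171 to 99.6 mean CPM, log2 -0.77, limma FDR = 4.15e-10). *THBS1* was also called lower in siPDL1-2 cells (-0.96) and was 1.78 times the siNC level with siPDL1-1 after IFNγ (0.83, FDR = 5.21e-10). In siPDL1-1 cells its IFNγ log2 fold change was -0.41 (limma FDR = 8.87e-07), under the fold change threshold. *LGALS3BP*, a secreted galectin-binding protein, was called higher in siPDL1-1 and siPDL1-2 cells (0.74 and 0.67). In siNC cells it also differed, by 0.49 (limma FDR = 4.50e-06), under the fold change threshold. *HAVCR2*, which encodes TIM-3, had a mean of 0.200 CPM over the 12 libraries.

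Of 25 other checkpoint ligands 16 were tested, and 7 rose and 1 fell with IFNγ in siNC cells. Beside *CD274* (log2 3.70) these were *PDCD1LG2*, which encodes PD-L2 (3.05), the NKG2A ligand *HLA-E* (2.88), the butyrophilins *BTN3A3* (2.71), *BTN3A2* (2.26), *BTN3A1* (2.22) and *BTN2A2* (0.70), and the B7 family gene *VTCN1*, which fell (-1.04). The same 7 were called higher in siPDL1-1 and siPDL1-2 cells, and *BTN2A1* was called higher in siPDL1-1 cells as well (0.67). *VTCN1* was called lower in siPDL1-2 but not in siPDL1-1 cells, and *CD24* was called lower in siPDL1-2 cells. Thus *CEACAM1* had a larger log2 fold change than *CD274*, and *TNFRSF14* lay between *PDCD1LG2* and *HLA-E* in siNC cells, in sizes on the same scale that were not tested against each other.

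In the adenosine pathway, 12 of 15 genes were tested and 1 rose with IFNγ in siNC cells, the ATP channel gene *PANX1* (0.60). *ENTPD1*, which encodes CD39, the enzyme upstream of CD73, had a mean of 19.8 CPM without and 17.1 CPM with IFNγ in siNC cells, and was not called. The list of 14 other galectins included the galectin-binding *LGALS3BP*, also counted among the binding partners. Of the 14 genes 5 were tested and 0 were called with limma in siNC cells. In siPDL1-1 cells *LGALS9B* (0.294 to 0.948 mean CPM, log2 0.59) and *LGALS3BP* were called higher. *LGALS9B* was low and just over the fold change threshold, and how reads shared with its near-identical copy *LGALS9* were assigned is not known. Of 18 other nectins and CEACAMs 8 were tested and 0 were called in siNC cells. *NECTIN4* was called lower with siPDL1-1 and siPDL1-2 (-0.59 and -0.73) and *NECTIN3* with siPDL1-2 (-0.65). In siNC cells *NECTIN4* was at -0.49 (limma FDR = 0.0101), just short of both thresholds. Its mean after IFNγ was 0.593 times the unstimulated mean with siNC and 0.600 times with siPDL1-1. After IFNγ, *NECTIN1* was called higher with siPDL1-2 than with siNC (0.84). *NECTIN4* and *CADM3* were called higher there with siPDL1-1, and *ADORA1* with both siRNAs. Without stimulation, siPDL1-1 against siNC gave *CD24*, *ENPP1*, *NECTIN4* and *CADM3* called higher and *VTCN1* lower. With siPDL1-2, *CD24* and *LGALSL* were called higher in unstimulated cells.

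Over the 12 libraries, the genes whose log2(CPM + 1) followed the members most closely were taken from the 11588 tested genes that averaged 5 CPM or more. They were *PARP9* (Pearson r = 0.999) and *CFB* (0.998) for *CEACAM1*, *PSMB10* and *IL18BP* (0.999 each) for *TNFRSF14*, and *PML* (0.997) and *SP100* (0.996) for *LGALS9*. For *CD47* they were *SAT1* (0.991) and *XRN1* (0.989), and for *NT5E* *PDGFRA* (0.993) and *TRIM38* (0.989). The members without an IFNγ call had lower values, from 0.970 for *PVR* with *TRIB3* and *GARS1* down to 0.896 for *CD276* with *CCDC92*. The 12 points share siRNA and stimulation groups, and the values are descriptions.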

How the data were processed

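RNA-seq of U251 cells was analysed from the deposited expression table, grouped by the sample labels. Per the methods, reads were trimmed and mapped by the authors to GRCh38 (Ensembl annotation) in CLC Genomics Workbench 22.0.2, with both strands counted and the values normalized. The signal values deposited by the authors are normalized CPM. Relative to plain CPM their column totals were 0.965 to 1.042, and 100% of values were whole multiples of 1 read (tolerance 0.02), so reads were recovered. The scaling factors of the columns matched the TMM (trimmed mean of M-values) factors that edgeR gave on the recovered reads, in every library. The study's methods name another extraction reagent and instrument than the labels.

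Genes passing filterByExpr (minimum count 10, minimum total 15) were tested with limma (trend, robust) on log2(CPM + 1), all 12 libraries as 6 groups, and the Benjamini-Hochberg method gave the FDR over all 17982 genes. Alternatives were edgeR's quasi-likelihood and DESeq2's Wald test on recovered reads, DESeq2 size factors, a pseudocount of 0.1, no filter, a replicate block, only the libraries compared, no fold change threshold and leaving out each library. The test was tested on simulated data. The members and lists were chosen with earlier results of these data known. Named genes are the members, *CD274*, IFNγ-response genes (1 of which is not reported here), called genes of the lists, the 2 most similar genes per member, and overlapping genes. *HAVCR2*, *ENTPD1*, *P4HB*, *CD44* and *SIRPA* were named after their values were seen. The mean chi-square between replicates was 1.85 to 7.76, where copies would give 0. Of the per-sample columns, all were used. Software was Python 3.11.15 (pandas 2.3.3, numpy 2.4.6, matplotlib 3.10.9, scipy 1.17.1) and R 4.3.3 with DESeq2 1.42.0, edgeR 4.0.16 and limma 3.58.1.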

Additional observations from a re-analysis of the deposited data

Results flagged for a closer look

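6 differences between siRNAs in the response to IFNγ passed the limma test of the interaction term at FDR under 0.01 and a fold change over 1.5. With siPDL1-1 the response was larger than with siNC for *LGALS9* (0.95 on the log2 scale, FDR = 1.28e-04) and for *CEACAM1* (0.88, FDR = 0.00105), where 0.890% of all genes tested were called in this direction. This *CEACAM1* call was lost with edgeR (0.54, FDR = 0.483), DESeq2 (0.53, FDR = 0.585) and a pseudocount of 0.1 (0.64, FDR = 0.101). With siPDL1-2 the response of *CD47* was smaller than with siNC (-0.88, FDR = 1.86e-05), where 5.78% of all genes were called in this direction. Between siPDL1-1 and siPDL1-2, the responses of *CD47* (0.76, FDR = 1.04e-05), *LGALS9* (0.73, FDR = 6.04e-04) and *CEACAM1* (0.90, FDR = 3.32e-04) were larger with siPDL1-1, where 4.32% of all genes were called in this direction. The comparisons share libraries, and groups held 2 libraries each.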

How the results depend on the processing

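Of 2400 member values under 20 alternative settings, 2329 kept their direction and their side of the threshold, 3 lost the call, 44 gained one and 24 changed sign. The 24 belonged to 16 results that were not called, with log2 values of at most 0.13 in size, and all came from leaving out a library. Over the fits without a library, siPDL1-1 against siNC after IFNγ ranged from -0.13 to 0.040 for *CD276*, -0.081 to 0.12 for *TNFRSF14*, -0.018 to 0.12 for *CD47*, -0.00227 to 0.045 for *PVR* and -0.070 to 0.12 for *LGALS3*. For siPDL1-2 against siNC after IFNγ, *TNFRSF14* ranged from -0.057 to 0.14 and *LGALS1* from -0.040 to 0.098, and without stimulation *TNFRSF14* from -0.23 to 0.051. Between the siRNAs, *NT5E* ranged from -0.00985 to 0.12 without stimulation and *TNFRSF14* from -0.12 to 0.082 after IFNγ. The effect of IFNγ on *LGALS1* in siPDL1-1 cells ranged from -0.12 to 0.051. The response against siNC ranged from -0.18 to 0.025 (*TNFRSF14*, siPDL1-1), -0.010 to 0.27 (*TNFRSF14*, siPDL1-2) and -0.089 to 0.042 (*CEACAM1*, siPDL1-2), and that between the siRNAs from -0.00522 to 0.091 for *CD276* and -0.079 to 0.047 for *NECTIN2*. Of the 44 gained, 34 came from dropping the fold change threshold. The calls of the 5 members that rose with IFNγ were kept under every alternative that was run. The number of members called for siPDL1-2 against siNC without stimulation was 1 in place of 0 with edgeR, DESeq2 and a pseudocount of 0.1, and 0 to 1 when libraries were left out, 1 without siNC replicate 1. The number for the siPDL1-1 response against siNC was 1 in place of 2 with edgeR, DESeq2 and a pseudocount of 0.1, because *CEACAM1* was lost (0.64 with that pseudocount, FDR = 0.101). Between the siRNAs the number was 1 without stimulation with a pseudocount of 0.1 and 2 after IFNγ with DESeq2. Leaving out a library gave 0 to 1 members for siPDL1-2 against siNC after IFNγ and 1 to 2 between the siRNAs after IFNγ. Without a fold change threshold, 8 members were called for IFNγ in siPDL1-1 cells, 5, 2 and 6 without stimulation (siPDL1-1, siPDL1-2, between the siRNAs), 5, 5 and 6 after IFNγ, and 3 for the siPDL1-2 response. The replicate numbers did not pair the libraries (correlation of replicate differences over genes -0.19 to 0.25 in 15 pairs of groups, over 0.1 in 2), and with a replicate block 5 members were still called for IFNγ in siNC cells and no member count changed. Low counts limit *CEACAM1* in unstimulated cells.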
